A study of Homo sapiens with 16 samples.

Results

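The IFIT family was followed as 4 genes, IFIT1, IFIT2, IFIT3 and IFIT5, chosen by gene symbol from the 60612 genes of the deposited table. All 4 passed the filter on low counts, which left 17950 genes for testing. They were measured by RNA sequencing in NCI-H1944, a human lung adenocarcinoma cell line, in 16 libraries. The 4 genotypes, as the labels name them, were SCR (the control, labelled WT), STING (STINGsg), MAVS (MAVSsg) and DKO, a double knockout. Each was given either 100 nM of MPS1i, the compound BAY-1217389, or its solvent DMSO for 48 h. After the compound was washed out, culture went on for 24 h, and each of the 8 groups holds 2 libraries. The labels do not say whether an edited line is 1 clone or a pool, nor whether the 2 replicates were grown apart. A p-value here therefore reflects library-to-library spread, which may be technical. Per the series' description, the question was how far the response to the compound needs STING, MAVS or the pair of them.

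IFIT proteins (interferon-induced proteins with tetratricopeptide repeats) are cytosolic antiviral proteins that bind RNA or one another. IFIT1 binds capped RNA that lacks ribose methylation next to the cap, IFIT2 and IFIT3 form complexes with IFIT1, and IFIT3 stabilises IFIT1. IFIT5 binds RNA with a 5′ phosphate. Their genes are switched on by interferon through the transcription factor complex ISGF3, and also directly by IRF3. Both routes lie downstream of STING, the adaptor of cytosolic DNA sensing, and of MAVS, the adaptor of the RNA sensors RIG-I and MDA5. MPS1 (gene TTK) is the spindle checkpoint kinase, and blocking it makes chromosomes missegregate.

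The 4 genes lie close together on the plus strand of chromosome 10 and are annotated as protein coding. The related gene IFIT1B lies between IFIT3 and IFIT1. In the deposited GRCh38 coordinates, IFIT2 (ENSG00000119922) spans chr10:89283694-89309271 and IFIT3 (ENSG00000119917) spans chr10:89327307-89377473. IFIT1 (ENSG00000185745) spans chr10:89392546-89406487 and IFIT5 (ENSG00000152778) spans chr10:89414568-89421605. LIPA, a lysosomal lipase gene on the opposite strand, overlaps the spans of IFIT1, IFIT2 and IFIT3, and the pseudogene IFIT6P lies inside the IFIT3 span. Since the strand setting and the handling of multiply mapped reads are not given in the sources used here, reads in such overlaps and in similar IFIT stretches may be assigned with some uncertainty.

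The promoters are shown because the members moved together with the interferon response, and because the letters of its response element can be seen in them. The printed stretches are the 200 bases before the annotated start, 5′ to 3′ on the plus strand, from RefSeq's promoter table of GRCh38.p14. It matched 3 of the 4 members with 4 windows, 2 of them for IFIT3, and IFIT2 was not matched. Its starts for IFIT1 and IFIT3 lie inside the deposited spans given above, and only its IFIT5 start is the deposited one. Capitals mark the core of the interferon-stimulated response element (ISRE), which is GAAA, then any 2 bases, then GAAA, and which appears in all of them as its reverse complement.
IFIT1, chr10:89392423-89392622: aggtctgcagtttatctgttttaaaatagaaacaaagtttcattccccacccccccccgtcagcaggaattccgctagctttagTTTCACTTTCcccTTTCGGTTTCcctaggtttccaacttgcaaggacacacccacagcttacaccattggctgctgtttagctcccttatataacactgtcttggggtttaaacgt
IFIT3 start 1, chr10:89327797-89327996: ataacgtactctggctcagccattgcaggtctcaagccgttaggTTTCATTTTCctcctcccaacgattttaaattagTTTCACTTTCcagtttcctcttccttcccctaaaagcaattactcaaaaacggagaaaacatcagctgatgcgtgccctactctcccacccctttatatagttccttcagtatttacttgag
IFIT3 start 2, chr10:89332329-89332528: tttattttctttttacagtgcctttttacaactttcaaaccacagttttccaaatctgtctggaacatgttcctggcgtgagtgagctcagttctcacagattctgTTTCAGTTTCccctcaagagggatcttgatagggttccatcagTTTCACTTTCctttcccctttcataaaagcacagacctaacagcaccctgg
IFIT5, chr10:89414368-89414567: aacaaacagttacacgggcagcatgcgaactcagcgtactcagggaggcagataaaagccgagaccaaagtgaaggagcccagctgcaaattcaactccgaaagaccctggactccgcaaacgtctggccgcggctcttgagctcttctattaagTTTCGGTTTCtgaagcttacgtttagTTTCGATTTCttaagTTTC

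The capitals stand at -116 to -107 and -103 to -94 from the start in IFIT1. In IFIT3 they stand at -156 to -147 and -122 to -113 before start 1, and at -94 to -85 and -51 to -42 before start 2. IFIT5 holds the core at -45 to -36 and -19 to -10, and another match from -4 to 6 crosses the start, so that its first 4 bases end the printed run. Within the whole windows of 300 bases (250 before the start and 50 after), searched on both strands, IFIT1 and each IFIT3 window held 2 cores, and IFIT5 held 3. Of 35116 windows in the table, 3.57% held at least 1 core, 0.259% at least 2 and 0.037% at least 3. The window of IFIT1B, a related gene between IFIT3 and IFIT1, held 0. The GAS element, TTCNNNGAA, was in 0 of the members' windows and in 7.66% of all windows, and no ISRE core overlapped another. A match is a run of letters and not a measured binding site.

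Total counts per library ran from 19893784 to 49769938, and members held 148 to 118913 counts each. Levels are given as CPM, each count scaled by the TMM-adjusted library total (TMM evens out differences in composition between libraries). Transcripts of STING1 were 8.27 ± 0.032 CPM in SCR DMSO and 3.74 ± 0.057 in STING DMSO, and 10.4 ± 0.52 in MAVS DMSO against 4.86 ± 0.046 in DKO DMSO (SD, n = 2). STING1 itself rose after MPS1i, on the log2 scale by 1.81 in SCR, 0.67 in the STING line and 0.84 in the MAVS line. In DKO it was at -0.24 and not called. Whether its lower levels come from the edit or go with those of interferon genes was not tested. Transcripts of MAVS were 186.1 ± 4.3 CPM in SCR DMSO, 195.2 ± 0.89 in MAVS DMSO and 214.6 ± 9.8 in DKO DMSO (SD, n = 2), so libraries labelled MAVS and DKO held no less of that transcript than SCR, and its level checks neither label. Epithelial keratins were abundant in every group (KRT8 1559 and KRT18 901.5 CPM in SCR DMSO), EPCAM was at 4.91 CPM there and KRT19 at no more than 4 counts in any library. Of 10 immune markers, 2 were at 0 in every library (NKG7 among them), and the list summed to 1.31 to 3.15 CPM. By edgeR 1 of the 3 tested rose after MPS1i in SCR (LYZ, from 0.203 to 0.574 CPM). In the STING, MAVS and DKO lines 2, 1 and 0 of them rose. Of all tested genes, 26% rose in SCR, 15.5% in the STING line, 17.1% in the MAVS line and 6.53% in DKO. A list of 9 stromal and endothelial markers summed to 27.4 to 50.4 CPM, mostly DCN and LUM. On the log2 scale DCN rose by 0.77 ± 0.09 in SCR, 0.54 in the STING line, 0.62 in the MAVS line and 0.4 in DKO. The libraries come from a cell line, and whether cells other than its own gave these reads was not tested.

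In SCR cells the MPS1i pulse raised every member of the family, IFIT1, IFIT2 and IFIT3 by 23.8-fold, 30.8-fold and 25.7-fold and IFIT5 by 4.35-fold. IFIT1 was at 87.7 and 91 CPM in the DMSO libraries and at 2090 and 2170 CPM after MPS1i. IFIT2 went from 88.7 and 87.5 CPM to 2710 in both libraries. IFIT3 went from 71.5 and 72.3 CPM to 1850 and 1840. IFIT5, the RNA 5′-phosphate binder, started near the others but gained least, from 63.1 and 64.5 CPM to 268 and 286. No treated library overlapped a DMSO library in any of the 4 genes. With 2 libraries against 2 such a separation also arises without an effect, and here and below its share over all genes was not counted. On the log2 scale, with the standard error (SE), IFIT1 rose by 4.57 ± 0.1, IFIT2 by 4.94 ± 0.11, IFIT3 by 4.68 ± 0.09 and IFIT5 by 2.12 ± 0.05. The adjusted p-values (edgeR's quasi-likelihood test, Benjamini-Hochberg over all tested genes) were 1e-13, 4.1e-12, 5.3e-15 and 1.3e-21. All 4 members rose, where 26% of all tested genes did, and their median log2 fold change was 4.63 against 0.03 for all tested genes. Of 13883 genes averaging 1 CPM or more, IFIT2 was the 31st, IFIT3 the 37th, IFIT1 the 40th and IFIT5 the 211th largest rise. These are means over all cells of a culture, so more responding cells and more RNA per cell cannot be told apart.

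**Figure D1:**
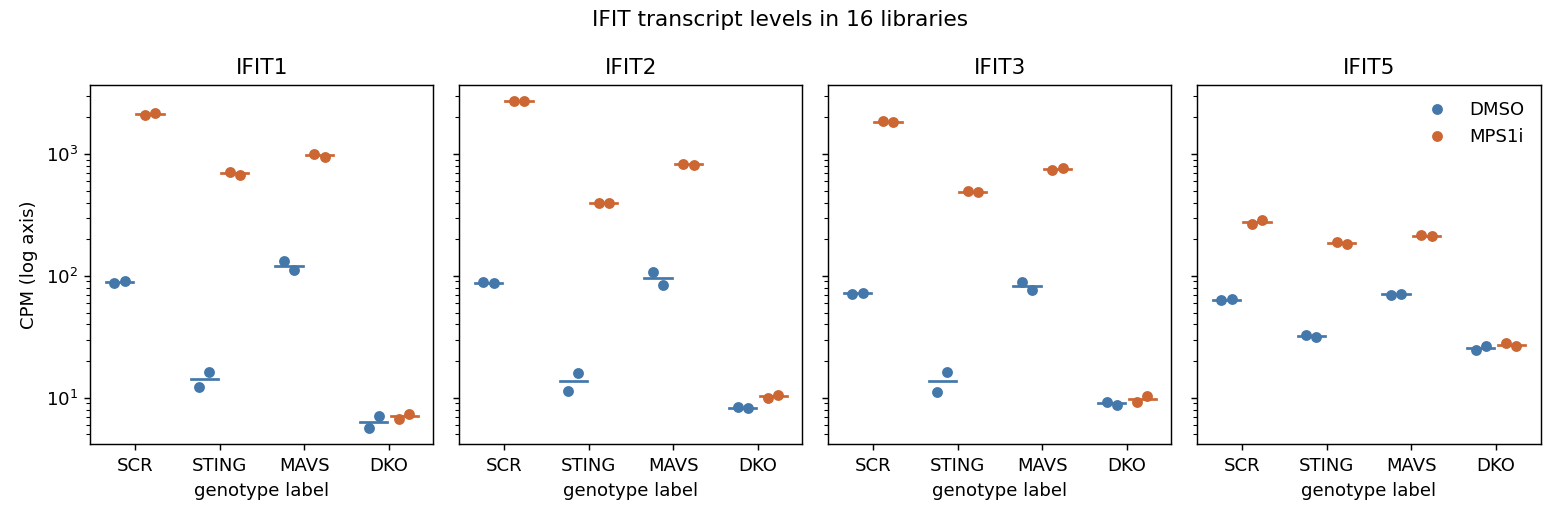
Level of each IFIT gene in all 16 libraries, in CPM on a log axis, by genotype label; points are libraries, short bars are means of 2, blue is DMSO and orange is MPS1i. MPS1i libraries sit far above DMSO libraries in SCR, STING and MAVS, while in DKO both sit at the bottom (IFIT1 from 5.66 to 7.38 CPM).

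In the STING line the family started from a much lower level and still rose. IFIT1 was at 12.2 and 16.2 CPM under DMSO and at 707 and 679 CPM after MPS1i. IFIT2 went from 11.4 and 16.1 CPM to 397 and 394. IFIT3 went from 11.2 and 16.2 CPM to 494 and 491. IFIT5 went from 32.5 and 31.3 CPM to 191 and 184, and again no treated library overlapped a DMSO library. The log2 rises were 5.62 ± 0.11 for IFIT1 (adjusted p = 2.5e-13), 4.86 ± 0.13 for IFIT2 (7.4e-11), 5.19 ± 0.11 for IFIT3 (3.9e-14) and 2.56 ± 0.06 for IFIT5 (8.3e-22). All 4 members rose, where 15.5% of tested genes did. Among the 13883 genes averaging 1 CPM or more, IFIT1 was the 8th, IFIT3 the 11th, IFIT2 the 15th and IFIT5 the 76th largest rise in that line.

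In the MAVS line the DMSO levels were near those of SCR, and the rise was smaller. IFIT1 was at 132 and 111 CPM under DMSO and at 1010 and 951 CPM after MPS1i. IFIT2 went from 107 and 84.8 CPM to 830 and 813. IFIT3 went from 89.1 and 76.5 CPM to 744 and 771. IFIT5 went from 69.8 and 71.4 CPM to 215 and 212. Treated and DMSO libraries did not overlap, and all 4 members rose, where 17.1% of tested genes did. The log2 rises were 3.01 ± 0.09 for IFIT1, 3.1 ± 0.1 for IFIT2, 3.19 ± 0.09 for IFIT3 and 1.6 ± 0.05 for IFIT5, with adjusted p-values from 2.5e-18 to 5.2e-10.

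In the DKO line none of the 4 members passed the test. IFIT1 was at 5.66 and 7.08 CPM under DMSO and at 6.74 and 7.38 CPM after MPS1i. IFIT2 was at 8.34 and 8.22 CPM, then at 9.96 and 10.6. IFIT3 was at 9.22 and 8.8 CPM, then at 9.3 and 10.4. IFIT5 was at 24.6 and 26.8 CPM, then at 28 and 26.6. The groups overlapped for IFIT1 and IFIT5 and lay apart, by a small step, for IFIT2 and IFIT3. The log2 differences and their 95% intervals were 0.12 (-0.25 to 0.49) for IFIT1, 0.31 (-0.07 to 0.68) for IFIT2, 0.12 (-0.19 to 0.42) for IFIT3 and 0.09 (-0.04 to 0.21) for IFIT5. Adjusted p-values ran from 0.29 to 0.73 in edgeR's quasi-likelihood test, 0 of 4 had an unadjusted p under 0.05 and DESeq2 also called 0, while 14.8% of all tested genes were called in that line in either direction.

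The treatment effects themselves differed between lines by the interaction term. Against SCR, the rise in the DKO line was smaller, with differences of -4.46 ± 0.2 for IFIT1, -4.64 ± 0.2 for IFIT2, -4.57 ± 0.17 for IFIT3 and -2.03 ± 0.08 for IFIT5 (log2, SE), with all 4 members called lower and 14.5% of tested genes called lower. Against SCR, the rise in the MAVS line was also smaller, with differences of -1.57 ± 0.12, -1.85 ± 0.14, -1.49 ± 0.12 and -0.52 ± 0.07 in the same order, with 4 called lower where 4.52% of tested genes were. The STING line went the other way for 3 members, where 9.97% of tested genes were called higher. Its rise exceeded that of SCR by 1.05 ± 0.14 for IFIT1 (adjusted p = 0.00017), 0.5 ± 0.14 for IFIT3 (0.019) and 0.44 ± 0.08 for IFIT5 (0.00013), while for IFIT2 the difference was -0.08 with a 95% interval from -0.44 to 0.28 (adjusted p = 0.8). The IFIT3 difference had an adjusted p from 0.057 to 0.15 when any 1 of 6 libraries was left out: either of SCR DMSO, the second of SCR MPS1i, the first of STING DMSO, or either of STING MPS1i. The comparisons with SCR share the SCR libraries. Between the single-guide lines, the STING line's rise exceeded the MAVS line's by 2.61 ± 0.14, 1.77 ± 0.16, 2 ± 0.14 and 0.96 ± 0.08 for IFIT1, IFIT2, IFIT3 and IFIT5, with all 4 called higher where 1.96% of tested genes were. The DKO line's effect was below the STING line's by -5.5 ± 0.21 for IFIT1 and -2.47 ± 0.08 for IFIT5, and below the MAVS line's by -2.89 ± 0.19 and -1.51 ± 0.08. All 4 members were called lower in both, where 3.17% and 6.41% of tested genes were.

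**Figure D2:**
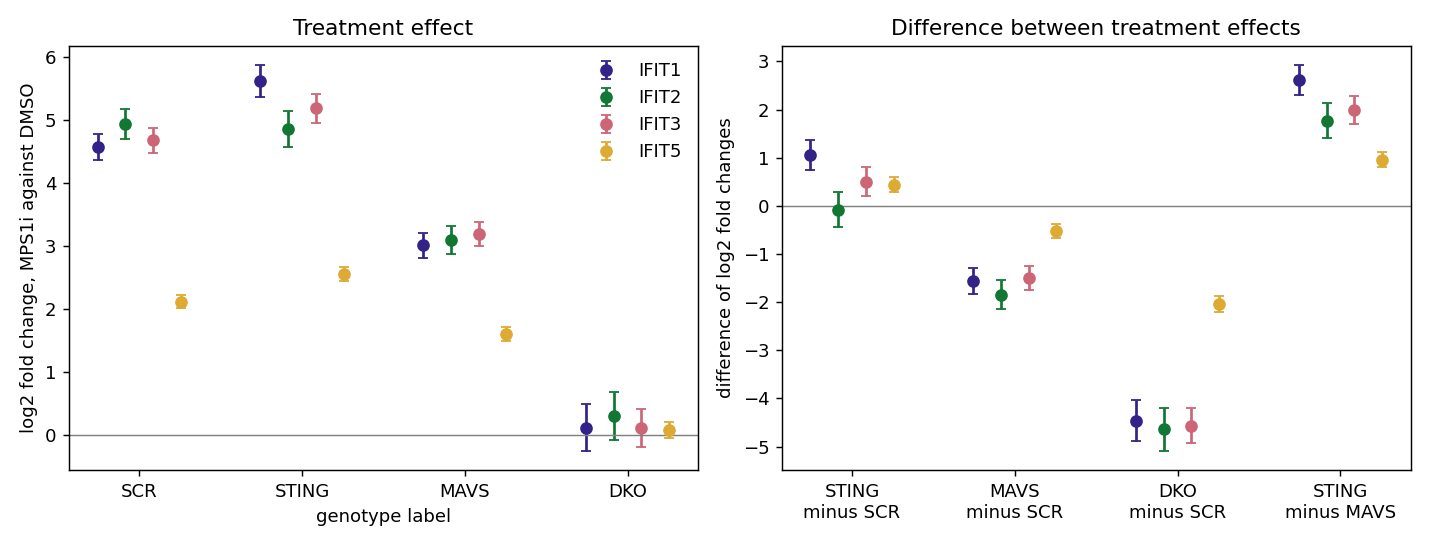
Left, log2 fold change of MPS1i against DMSO in each genotype label; right, difference of those log2 fold changes between 2 lines; bars are 95% intervals from the fit and colours are genes. The DKO intervals include 0 for all 4 genes, and STING minus SCR is above 0 for IFIT1, IFIT3 and IFIT5 but not for IFIT2 (-0.08).

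A larger fold in the STING line did not mean a higher level, since its DMSO level was lower. Under DMSO, the STING line held 15.8% of the SCR level of IFIT1, 15.4% of IFIT2, 18.8% of IFIT3 and 50.1% of IFIT5. The log2 falls were -2.66 ± 0.11, -2.7 ± 0.13, -2.41 ± 0.11 and -1 ± 0.06, with adjusted p-values from 3.1e-12 to 1.1e-07. All 4 members were lower, where 5.47% of tested genes were, and IFIT2, IFIT1 and IFIT3 were the 8th, 9th and 12th largest falls of the 13883 ranked genes. The DKO line under DMSO held 7.23% of the SCR level of IFIT1, 9.39% of IFIT2, 12.5% of IFIT3 and 40.5% of IFIT5. All 4 were lower there too, where 15.3% of tested genes were, with adjusted p-values from 2.2e-15 to 3e-09.

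The MAVS line under DMSO was not lower than SCR in any member. IFIT1 was called higher by 0.45 ± 0.09 on the log2 scale (adjusted p = 0.0098), 1 of 4 members where 3.98% of tested genes were called higher. That call was lost without the first MAVS DMSO library (adjusted p = 0.083) or without either SCR DMSO library (0.089 and 0.077). IFIT2, IFIT3 and IFIT5 differed by 0.13, 0.21 and 0.15 with adjusted p-values of 0.56, 0.19 and 0.1. Directly compared, the STING line was below the MAVS line under DMSO in all 4 members (2.15% of tested genes were lower), by -3.11 ± 0.11 for IFIT1 and -1.14 ± 0.06 for IFIT5.

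The DKO line lay below both single-guide lines under DMSO. Against the MAVS line all 4 members were lower (8.21% of tested genes were), from -4.24 ± 0.12 for IFIT1 to -1.45 ± 0.06 for IFIT5. Against the STING line the step was smaller: -1.12 ± 0.15 for IFIT1, -0.72 ± 0.17 for IFIT2, -0.59 ± 0.14 for IFIT3 and -0.31 ± 0.06 for IFIT5, all 4 called lower where 7.81% of tested genes were. The calls of IFIT2 and IFIT3 were lost without either DKO DMSO library, which left 2 of 4, and IFIT3 also without the second STING DMSO library (adjusted p = 0.078). So the untreated level of IFIT1 fell in the order MAVS, SCR, STING, DKO, and the 3 other members had the same order of means.

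After MPS1i, SCR stood highest in every member. The MAVS line reached 46.1% of the SCR level of IFIT1, 30.3% of IFIT2, 41.1% of IFIT3 and 77.1% of IFIT5, all 4 called lower where 8.47% of tested genes were. The STING line reached 32.5% of IFIT1, 14.6% of IFIT2, 26.7% of IFIT3 and 67.7% of IFIT5, all 4 lower where 17.3% of tested genes were. The DKO line stood at 0.329% of IFIT1, 0.377% of IFIT2, 0.528% of IFIT3 and 9.87% of IFIT5, all 4 lower where 22.4% of tested genes were. IFIT5 was the member that came nearest to SCR in all 3 lines.

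Between treated lines, the STING line was below the MAVS line by -0.5 ± 0.08 for IFIT1, -1.06 ± 0.09 for IFIT2, -0.62 ± 0.08 for IFIT3 and -0.19 ± 0.05 for IFIT5, all 4 called where 5.83% of tested genes were lower. The IFIT5 call (adjusted p = 0.013) was lost without the second STING MPS1i library (0.16) or either MAVS MPS1i library (0.1 and 0.064). The DKO line was below the STING line by -6.63 ± 0.12 for IFIT1 and -2.78 ± 0.06 for IFIT5, and below the MAVS line by -7.13 ± 0.12 and -2.96 ± 0.06. All 4 members were lower in both, where 7.69% and 14.2% of tested genes were.

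The order of the 8 groups was the same for all 4 genes: SCR MPS1i, MAVS MPS1i, STING MPS1i, MAVS DMSO, SCR DMSO, STING DMSO, DKO MPS1i and DKO DMSO. Neighbours in that order overlapped in their library values only between DKO MPS1i and DKO DMSO (IFIT1 and IFIT5) and between MAVS DMSO and SCR DMSO (IFIT2). The DKO groups did not differ by the test in any member, as above. Groups of 2 can thus lie apart without passing the test, as those of IFIT2 and IFIT3 did in DKO. How often neighbouring groups lie apart over all genes was not counted, so these separations are description only. Together the 4 genes took 0.0308% and 0.0309% of all counts in the SCR DMSO libraries and 0.669% and 0.67% in the SCR MPS1i libraries. They took 0.178% and 0.176% in STING MPS1i, 0.279% and 0.274% in MAVS MPS1i, and from 0.00489% to 0.00563% in the 4 DKO libraries.

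Levels between genes were compared per length, as CPM per kilobase of exon (exon unions in bases of GENCODE release 29: 4613 for IFIT1, 4101 for IFIT2, 2640 for IFIT3 and 4015 for IFIT5). In SCR MPS1i the level per length was 698.8 for IFIT3, 661.1 for IFIT2, 461.3 for IFIT1 and 69.1 for IFIT5, which ranked 25th, 27th, 39th and 494th of 17676 genes. In STING MPS1i IFIT1 stood above IFIT2, at 150.1 against 96.4, with IFIT3 at 186.6 and IFIT5 at 46.8. IFIT1 was above IFIT2 in the MAVS line too, at 212.6 against 200.4 after MPS1i and 26.3 against 23.4 under DMSO. These gaps depend on the exon lengths used. Under DMSO the library values overlapped, at 28.5 and 24.2 for IFIT1 and 26 and 20.7 for IFIT2. In DKO DMSO IFIT5 was highest at 6.4 and the other members kept their order, with IFIT3 at 3.41, IFIT2 at 2.02 and IFIT1 at 1.38. IFIT5 was highest in STING DMSO too, at 7.95 against 5.18 for IFIT3. It made up 45% to 49.3% of the family's length-scaled level in the 4 DKO libraries and 45.6% and 36.6% in STING DMSO. Its share was 18.8% and 19% in SCR DMSO, 16.5% and 19.4% in MAVS DMSO, and 3.55% and 3.76% in SCR MPS1i.

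The mix of IFIT1 and IFIT2, partners in one protein complex, was compared between lines. The ratio of IFIT2 to IFIT1 counts within a library does not depend on library scaling. It was 0.961 and 1.01 in SCR DMSO, and 1.25 and 1.3 after MPS1i. In the STING line it was 0.933 and 0.991 under DMSO, and 0.561 and 0.581 after MPS1i. The treated libraries were higher in SCR and lower in the STING line, and the groups did not overlap in either case. In the MAVS line the ratio stayed below 1, from 0.761 to 0.811 under DMSO and from 0.822 to 0.856 after MPS1i. In the DKO line it lay above 1 in all 4 libraries, from 1.16 to 1.48. With 2 libraries against 2, an exact permutation test cannot give a p below 0.333, which is what each of the separated pairs gave (two-sided). In the fit over all genes, the log2 loss from SCR to STING after MPS1i had a 95% interval from -2.99 to -2.56 for IFIT2. For IFIT1 it was from -1.8 to -1.44. Both genes were read in the same libraries, and the difference between their losses was not tested.

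The IFIT5 to IFIT1 ratio was lower in the MPS1i libraries than in the DMSO libraries of the SCR, STING and MAVS lines, without overlap. It was from 0.708 to 0.719 in SCR DMSO and from 0.128 to 0.132 in SCR MPS1i. In the STING line it was from 1.93 to 2.66 under DMSO and 0.271 and 0.272 after MPS1i. In the MAVS line it was from 0.531 to 0.641, then from 0.213 to 0.223. In the DKO line it was from 3.78 to 4.35 under DMSO and from 3.6 to 4.16 after MPS1i, which overlap. IFIT5 was thus the majority of the pair in every DKO and STING DMSO library and the minority in all others.

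**Figure D3:**
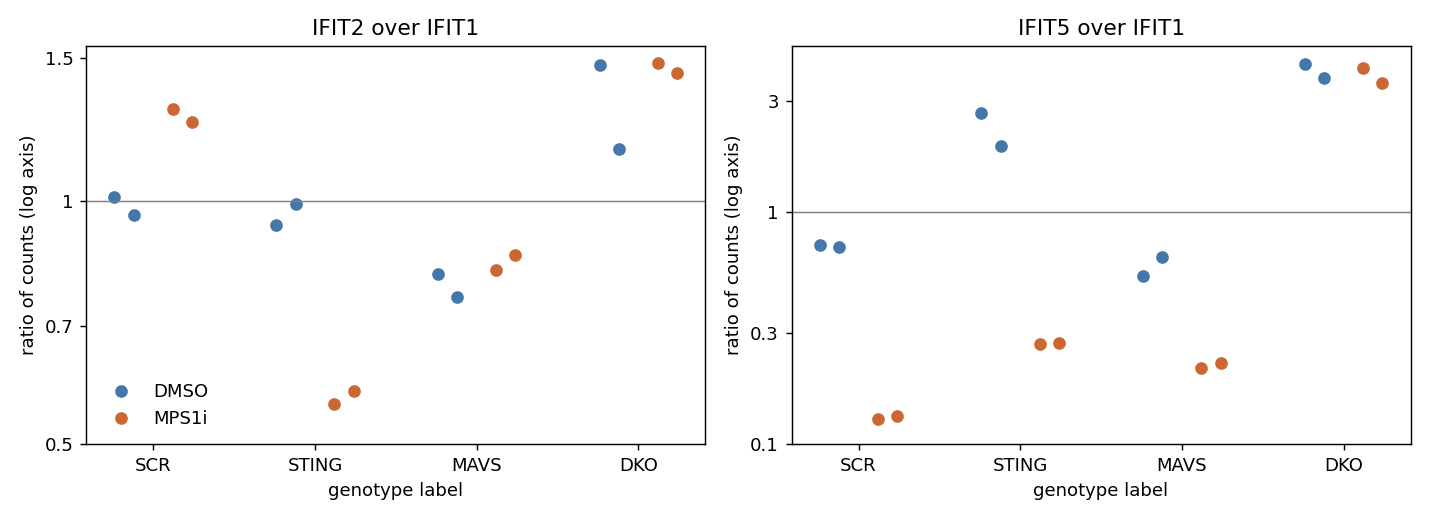
Ratios of counts within each library, IFIT2 over IFIT1 (left) and IFIT5 over IFIT1 (right), on log axes by genotype label; each point is 1 library, blue DMSO and orange MPS1i, and the grey line is a ratio of 1. IFIT2 over IFIT1 lies at 1.25 and 1.3 in SCR MPS1i and at 0.561 and 0.581 in STING MPS1i.

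Genes with the most similar pattern were sought by Pearson's r of log2 CPM over the 16 libraries, using the 13883 genes that averaged 1 CPM or more. These are descriptions over libraries that share 8 groups and the same treatment, and no p is attached. Nearest to IFIT1 outside the family were PLSCR1 (r = 0.9991), EPSTI1 (0.9977) and HERC5 (0.9966). Nearest to IFIT2 were IFIH1 (0.9961), which encodes the RNA sensor MDA5, DDX58 (0.994), the older symbol of the gene for RIG-I, and OASL (0.9935). Nearest to IFIT3 were IFIH1 (0.9988) and the partners DTX3L (0.9974) and PARP9 (0.9971), and nearest to IFIT5 were PARP9 (0.9993) and DTX3L (0.9991). Within the family, IFIT3 was the gene nearest to IFIT2 of all (r = 0.9968), whereas IFIT5 ranked 22nd for IFIT2 (0.9877). HERC5, a ligase that attaches ISG15 to proteins, rose more in the STING line (5.35 ± 0.1) than in SCR (3.93 ± 0.06), as IFIT1 did. IFIH1 and DDX58 rose by 3.35 ± 0.08 and 3.46 ± 0.07 in the STING line and by 3.31 ± 0.07 and 3.43 ± 0.06 in SCR. OASL rose by 0.52 ± 0.16 more in the STING line than in SCR (adjusted p = 0.027 in edgeR's interaction test), while IFIH1 (0.04) and DDX58 (0.03) did not pass that test.

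Of the family's relatives, IFIT1B was close to the detection limit. It had 0 and 3 counts in SCR DMSO and 13 and 21 in SCR MPS1i, no more than 7 elsewhere, and 0 in all 4 DKO libraries. Its rise in SCR passed edgeR's test (adjusted p = 0.0032), a call lost without the first SCR DMSO library and in DESeq2 (adjusted p = 0.093 in both). A count of 0 in a library allows up to 3 counts, a limit that covers counting error only. The pseudogenes IFIT1P1 and IFIT6P had at most 6 and 4 counts and were not tested.

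The ligands that act upstream of the family were nearly silent under DMSO. Of 11 interferon genes 6 were tested. By edgeR 5 of them rose in SCR, 4 in the STING line, 4 in the MAVS line and 0 in DKO. In DKO the count was 0 also by DESeq2 and at an unadjusted p under 0.05. Of all tested genes, 26% rose in SCR, 15.5% in the STING line, 17.1% in the MAVS line and 6.53% in DKO. The IFNB1 call in the MAVS line was lost when any of the 4 MAVS libraries was left out (edgeR adjusted p from 0.068 to 0.18) and in DESeq2 (0.1). Mean IFNB1 was 0.0145 CPM in SCR DMSO and 4.85 CPM in SCR MPS1i, 0.424 in STING MPS1i, 0.194 in MAVS MPS1i and 0 in DKO MPS1i. IFNL1, a type III interferon, had 0.108 and 12.3 CPM in SCR, then 0.979 in STING MPS1i, 1.47 in MAVS MPS1i and 0 in DKO MPS1i. IFNL2 and IFNL3, which are nearly identical and may share reads, were at 17 and 19.6 CPM in SCR MPS1i. No median is given for the ligands, since their DMSO counts were at or near 0.

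The receptors and kinases that pass the interferon signal on changed less. Of 9, 7 rose and 1 (IFNAR1, a call lost without the second SCR DMSO library) fell in SCR, with a median log2 fold change of 0.3 against 0.03 for all tested genes. Among all tested genes 26% rose and 24% fell in SCR. JAK2 rose by 1 ± 0.06 and IFNLR1, the type III receptor chain, by 1.65 ± 0.21. In the STING, MAVS and DKO lines 3, 4 and 1 of the 9 rose (2 in DKO, JAK2 being the added one, without the second DKO DMSO library, with RLE or upper quartile scaling, or when genes averaging under 1 CPM were dropped). Among all tested genes 15.5%, 17.1% and 6.53% rose in those lines. Of the ISGF3 and IRF factors, which bind the ISRE, 7 of 8 rose in SCR, in the STING line and in the MAVS line. Their medians there were 1.68, 1.73 and 1.07. STAT2 rose by 2.7 ± 0.05, IRF1 by 2.88 ± 0.07 and IRF7 by 2.71 ± 0.09 in SCR. In DKO 3 of 8 rose (IRF9 0.49, IRF1 0.36 and IRF7 0.77), with 1 left when the first DKO MPS1i library was dropped, and the median was 0.08.

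Sensors and adaptors, the top of both routes, rose in 10 of 11 genes in SCR, 9 in the STING line and 10 in the MAVS line, with medians of 1.58, 1.03 and 0.84, and in 0 of 11 in DKO by edgeR. The shares of all tested genes that rose were 26%, 15.5%, 17.1% and 6.53% in SCR, STING, MAVS and DKO. At an unadjusted p under 0.05, 1 of the 11 was higher in DKO, and DESeq2 called 0. In edgeR, DDX58 was called higher in DKO with upper quartile scaling, with no filter and without the second DKO DMSO library, and TICAM1 without the first DKO DMSO library. In SCR, DDX58 rose by 3.43 ± 0.06, TLR3 by 3.27 ± 0.08, IFIH1 by 3.31 ± 0.07 and TRIM25, the RIG-I ubiquitin ligase, by 0.97 ± 0.04, while MAVS itself fell by 0.64 on the log2 scale. In DKO 2 of 11 fell, where 8.22% of tested genes did, TRIM25 (-0.21) and MAVS (-0.19), with 1 left when the first DKO MPS1i library was dropped. Of 7 feedback inhibitors, 5 rose in SCR, 4 in the STING line, 4 in the MAVS line and 0 in DKO by edgeR (2 at an unadjusted p under 0.05, and 1 by DESeq2). USP18, which dampens receptor signalling, rose by 4.01 ± 0.08 in SCR and ISG15, a ubiquitin-like modifier, by 3.92 ± 0.14.

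Other antiviral effectors give the nearest comparison with the family. All 22 of them rose in SCR, in the STING line and in the MAVS line, where 26%, 15.5% and 17.1% of tested genes did. Their median log2 fold changes were 3, 2.96 and 2.11. In DKO 9 of 22 rose, where 6.53% of tested genes did, with a median of 0.31; MX1 (0.72), OAS1 (0.63), OAS2 (0.78), OASL (0.78), IFI44 (0.66), SAMD9 (0.26), IFI44L (0.29), ADAR (0.12) and ZC3HAV1 (0.14) were the ones called. That count was 5 without the second DKO DMSO library or the first DKO MPS1i library. DESeq2 called 10 of the 22 higher in DKO, and 11 were higher there at an unadjusted p under 0.05 in edgeR. OAS2, an enzyme that makes RNase L activators, was called in DKO at an adjusted p of 1.6e-08 in edgeR. The difference between OAS2 and the IFIT genes in DKO was not tested. Of the 17 effectors with a promoter window, 13 held an ISRE core, 76.5%, against 4.38% of 27305 genes with a window.

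The cap methylation list held 6 genes, and not all of them make the ribose mark that keeps RNA from IFIT1. CMTR1, which methylates the ribose next to the cap, rose by 1.68 ± 0.06 in SCR (adjusted p = 4.3e-18), 1.15 in the STING line and 1.04 in the MAVS line, against 0.03 in DKO (adjusted p = 0.83). RAMAC also rose in SCR (0.26) and the MAVS line, and RNMT fell in SCR by 0.14 on the log2 scale; the RAMAC call in the MAVS line was lost when any of the 4 MAVS libraries was dropped, and the RAMAC and RNMT calls in SCR were lost without the first SCR DMSO library, that of RNMT also without the second SCR MPS1i library. Of 7 translation initiation factors, 3 fell and 1 (EIF4G1) rose in SCR (2 rose without the second SCR DMSO or either SCR MPS1i library, and 3 when genes averaging under 1 CPM were dropped), where 24% of all tested genes fell and 26% rose. Of the 17950 tested genes, 2778 rose and 2491 fell in the STING line, 3074 and 2927 in the MAVS line, and 1173 and 1475 in DKO. Of the 7 factors, 2 fell and 2 rose in the STING line, 4 fell and 2 rose in the MAVS line, and 1 fell and 0 rose in DKO. The 2 that rose became 1 in the STING line without the second DMSO or second MPS1i library, and 0 or 1 in the MAVS line without any 1 of its 4 libraries and 1 with no filter or by DESeq2. EIF3A, a subunit of eIF3, a known target of IFIT proteins, fell by 0.92 on the log2 scale in SCR, 0.38 in the STING line, 0.58 in the MAVS line and 0.23 in DKO.

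The genes around the cluster did not follow it evenly. Within 500 kb of the family, 9 other protein-coding genes were tested. In SCR 5 of them rose and 2 fell, against 26% and 24% of all tested genes. IFIT1B, the relative close to the detection limit, was among those that rose. CH25H, the cholesterol 25-hydroxylase, rose by 3.72 ± 0.42 in SCR from 0.185 to 2.66 CPM. LIPA, which overlaps the spans of 3 members on the other strand, rose by 0.69 ± 0.05 in SCR, 0.46 in the STING line and 0.42 in the MAVS line, and was at -0.13 in DKO (adjusted p = 0.079). FAS, the death receptor, rose by 0.88 ± 0.05 in SCR and 0.38 and 0.48 in the STING and MAVS lines, and was at 0.14 in DKO (adjusted p = 0.089). ACTA2 was at 0.32 in SCR (adjusted p = 0.1 in edgeR) and rose by 0.83, 0.46 and 0.59 in STING, MAVS and DKO. In DKO it was the 1 neighbour called higher while 2 fell, against 6.53% and 8.22% of all tested genes. KIF20B, a mitotic kinesin, fell in all 4 lines, by -0.78, -0.93, -0.61 and -0.87 in SCR, STING, MAVS and DKO. LIPA at 109.2 CPM in SCR DMSO and 176.1 CPM in SCR MPS1i moved far less than the members inside its span.

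**Figure D4:**
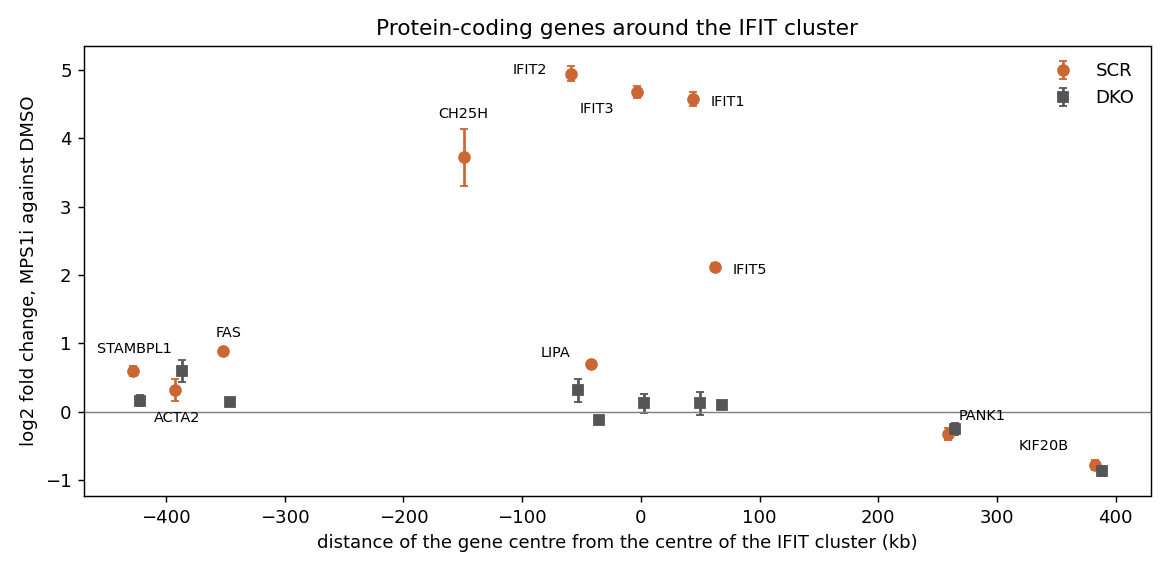
Log2 fold change of MPS1i against DMSO, with the SE as bars, for protein-coding genes within 500 kb of the IFIT cluster, against the distance of the gene centre from the centre of the cluster in kb; orange circles are SCR and grey squares DKO. Genes listed at or near 0 CPM are left out (the DKO point of CH25H, ANKRD22 and IFIT1B); IFIT1, IFIT2 and IFIT3 stand above 4.5 in SCR, and all members lie near 0 in DKO.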

How the data were processed

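RNA from 16 libraries of NCI-H1944 cells was measured by poly(A) RNA sequencing with a stranded kit, per the labels' protocols. The deposited table gives raw, unnormalized counts for each gene; per the submitters' processing notes the authors trimmed reads (Trim Galore, Trimmomatic and cutadapt are named), aligned them with STAR to GRCh38 and counted them with featureCounts. Versions, strand setting, annotation release and handling of multiply mapped reads are not given in the sources used here.

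Counts were fitted in R 4.3.3 with edgeR 4.0.16: filterByExpr (minimum count 10, minimum total 15), TMM, robust dispersions, 1 mean per group (8 residual degrees of freedom) and the two-sided quasi-likelihood F-test. The 17950 tested genes held at least 99.93% of each library's counts. Each of 22 contrasts (4 treatment, 12 genotype, 6 differences of treatment effects) was adjusted by Benjamini-Hochberg over all tested genes, and genes were called at an adjusted p under 0.05. The SE was taken from F (size of the log2 fold change over the root of F), intervals are 95%, and r used a prior count of 2. Exon lengths came from GENCODE release 29, which matched 58344 table genes. DESeq2 1.42.0 was an alternative, with other scalings, filters, sample choices and a replicate block.

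Same-numbered replicates did not deviate together (28 pairs of groups, residual r from -0.05 to 0.09), so they were not treated as paired. No replicates agreed within sampling noise, so each counted as 1. The members, the gene lists and the naming rule were chosen with earlier results of these data known. The rule names the 4 members, per list up to 4 called genes, those of smallest adjusted p in SCR, the 3 genes most like each member, tested protein-coding neighbours within 500 kb, and STING1, MAVS and TTK; the 9 effectors and the IRF, sensor, RAMAC, RNMT and IFNAR1 calls in DKO or SCR were named after their values were seen. The lists were interferon ligands, receptors and kinases, ISGF3 and IRF factors, sensors and adaptors, feedback inhibitors, antiviral effectors, cap methylation, translation initiation partners, IFIT relatives, and epithelial, immune and stromal markers. Some genes that the rule or the lists hold are not reported here.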

Additional observations from a re-analysis of the deposited data

Results flagged for a closer look

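The effect of MPS1i on the family differed between lines by the interaction test of edgeR, which marks 23 gene and line pairs, and the values here are differences of log2 fold changes. Between the STING line and SCR, the difference was 1.05 for IFIT1, 0.5 for IFIT3 and 0.44 for IFIT5. For the MAVS line less SCR, the difference was -1.57 for IFIT1, -1.85 for IFIT2, -1.49 for IFIT3 and -0.52 for IFIT5. With DKO set against SCR, the difference was -4.46 for IFIT1, -4.64 for IFIT2, -4.57 for IFIT3 and -2.03 for IFIT5. When the STING line was set against the MAVS line, the difference was 2.61 for IFIT1, 1.77 for IFIT2, 2 for IFIT3 and 0.96 for IFIT5. In DKO less the STING line, the difference was -5.5 for IFIT1, -4.56 for IFIT2, -5.07 for IFIT3 and -2.47 for IFIT5. In DKO less the MAVS line, the difference was -2.89 for IFIT1, -2.79 for IFIT2, -3.07 for IFIT3 and -1.51 for IFIT5. IFIT2 is the 1 member without such a call in the STING line against SCR. Comparisons that name the same line share its libraries, and groups of 2 libraries were too small for a check of single far libraries.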

How the results depend on the processing

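The 88 member fold changes were refitted under 1064 alternatives (DESeq2, RLE and upper quartile scaling, no filter, a mean of at least 1 CPM, only the groups compared, a replicate block, and each of 16 libraries left out), of which 23 gave another call or direction. The replicate block changed no call of a member and, as the numbers do not pair the libraries, is given only as a count: 4 members called in SCR with the block as without it. Members called for MAVS against SCR under DMSO were 1, with 2 when no filter was used and 2 when only the groups compared were fitted (IFIT3 joined, adjusted p = 0.0092 and 0.041), and 0 to 1 with a library left out. For DKO against STING under DMSO they were 4, and 2 to 4 with a library left out. With only the groups compared, IFIT2 in STING against MAVS under DMSO was at an adjusted p of 0.069. Direction was reversed for 3 uncalled values, each with 1 library left out: IFIT2 in the STING against SCR difference of treatment effects (-0.32 to 0.17, the latter without the second STING DMSO library), IFIT2 in MAVS against SCR under DMSO (-0.05 to 0.28, the former without the first MAVS DMSO library) and IFIT1 in DKO after MPS1i (-0.02 to 0.3, the former without the first DKO DMSO library).

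Counts over all genes moved more. With 1 library left out the lowest counts were 1433 for MPS1i in DKO (2648 with all libraries), 3364 for MPS1i in STING (5269), 339 for MAVS against SCR (1177), 897 for STING against SCR (1826), 394 for STING against MAVS (831), 1702 for DKO against STING (3077) and 1761 for DKO against MAVS (2897) under DMSO. Under MPS1i they were 1794 for MAVS against SCR (2859), 978 for STING against MAVS (1926) and 1473 for DKO against STING (2537), and for differences of treatment effects 851 for MAVS against SCR (1336), 369 for STING against MAVS (700) and 535 for DKO against STING (848). Fitting only the groups compared gave 1629 for MPS1i in DKO, 1983 for DKO against STING and 1469 for DKO against MAVS under DMSO, and 1141 for the STING against MAVS difference. Fewer libraries leave fewer residual degrees of freedom. Upper quartile scaling moved the share of called genes that were higher from 44.3% to 56.9% for MPS1i in DKO, and by up to 16.9 percentage points elsewhere (STING against MAVS under DMSO, 53.5% to 70.4%), with medians of all genes moving by at most 0.07. On plain library totals 6 of 32 group levels moved by more than 1 SD, and the ISRE core of IFIT5 was found 2 times in the 200 bases before the start against 3 in the whole window. A mean of at least 1 CPM left 3 ligands and 3 neighbours called higher in SCR, since the others lie under it. Depth limits the DKO values most, where IFIT1 had 148 to 255 counts.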
